A study of Homo sapiens and Homo sapiens
Mus with 12 samples.

Results

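The human genes for translation initiation and elongation factors were followed in UM-UC-3 cells, an established line from an advanced bladder cancer, after knockdown of CDH11. CDH11 is a cadherin, a cell adhesion protein typical of mesenchymal cells. The members were the protein-coding genes whose symbol begins with EIF and a digit from 1 to 6, or with EEF and 1 or 2, with chromosome Y left out. This gave 71 genes. Among them were 70 of the 21466 genes with a value in every cultured library and 68 of the 26813 with a value in every xenograft tumor, with 67 in both. RNA-seq counts were available for 3 libraries each of shCtrl, shCDH11#1 (sh#1) and shCDH11#2 (sh#2) cells precultured for 24 h, and for 5 tumors of each kind, grown under the skin of male BALB/cAJcl-nu/nu nude mice that were 5 weeks old and sampled 4 weeks after transplantation. Every group carried a lentiviral hairpin vector with a GFP marker, shCtrl a control hairpin, and the transduced cells were sorted pools rather than single clones. In nude mice T cells are lacking, while other host cells remain. CDH11 KD below means both hairpins taken as a single group.

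Protein synthesis begins when eIF2 delivers the initiator transfer RNA to the small ribosomal subunit, eIF3 holds this complex together, and eIF4F, made of the cap-binding protein eIF4E, the scaffold eIF4G and the helicase eIF4A, brings it to a capped messenger RNA. After scanning to the start codon under the control of eIF1, eIF1A and eIF5, the large subunit joins with the help of eIF5B, and the chain is extended by eEF1A, which carries aminoacyl transfer RNA, and eEF2, which moves the ribosome along. Several of these factors, together with nearly all ribosomal proteins, are encoded by TOP messenger RNAs, which start with a C and a run of pyrimidines and whose translation is held back by LARP1 when mTOR signalling is low.

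The cultured libraries held 2273182 to 2777019 counts and the tumors 414849 to 1248977 counts on human genes, the fewest in sh#1 tumor 1. Levels are given as counts-per-million values after TMM normalization (CPM), differences as log2 fold changes ± SE. A member passed the test when its edgeR quasi-likelihood p, adjusted by the Benjamini-Hochberg method over all tested genes, was under 0.05 in cultured cells or under 0.1 in tumors, the limits the study used. The paper reports a significant loss of CDH11 messenger RNA and protein in the knockdown cells. In the cultured libraries CDH11 had 2 to 4 counts in shCtrl, 0 to 1 in sh#1 and 0 to 2 in sh#2, too few to check the knockdown here. In tumors it was at 7.66 to 28.5, 2.18 to 9.55 and 3.82 to 18.8 CPM, so that the groups overlapped. The epithelial keratins KRT8 and KRT18 and the mesenchymal VIM were well covered in both systems, while the urothelial keratins KRT19 and KRT7 had at most 3 and 14 counts in any library. PTPRC and PECAM1, markers of blood and endothelial cells, had no count in culture and at most 2 and 3 human counts per tumor. Human COL1A1, a collagen of fibroblasts, had 0 to 3 counts per cultured library but 23 to 84 per shCtrl tumor, 5 to 49 in sh#1 and 36 to 132 in sh#2. Mouse Col1a1 had 357 to 1181, 70 to 613 and 302 to 1724 counts in the same tumors. Whether mouse reads were counted on human genes was not tested, nor was the part of COL1A1 in the tumor results. Mouse genes took 10.4 to 14.4% of all counts in shCtrl tumors, 10.4 to 30.0% in sh#1, with the highest value in sh#1 tumor 1, and 13.0 to 18.8% in sh#2. The deposited barcode list gives each group of tumors a mix, or FASTQ file, of its own, so mix and group cannot be told apart. Nothing states that the cultured replicates came from separate cultures, and their p-values then measure only the spread between these libraries.

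In culture, more members were called higher than lower in each comparison with shCtrl. With CDH11 KD, 20 of the 64 members that passed the low-count filter rose and 1 fell, against 9.12% and 8.32% of all 9859 genes tested, and the median log2 fold change of the members was 0.16, against 0.00 over all genes. With sh#1, 23 rose and 4 fell, where 11.8% and 10.6% of all genes did. With sh#2, 23 rose and 15 fell, where 19.5% and 18.8% of all genes did, so the downward share of the members, 23.4%, was close to that of all genes. The medians were 0.20 and 0.12. Both hairpins were compared with the same 3 shCtrl libraries, so the lists of calls are not independent of each other. Set against each other, 11 members were higher in sh#1 and 15 higher in sh#2, against 11.2% and 13.5% of all genes. The count for CDH11 KD leaned on the controls: without shCtrl library 1 it was 11 members up and none down, and without shCtrl library 3 it was 12 up and 1 down. Fitting the hairpins as separate groups and testing their mean gave 25 up and 9 down.

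**Figure D1:**
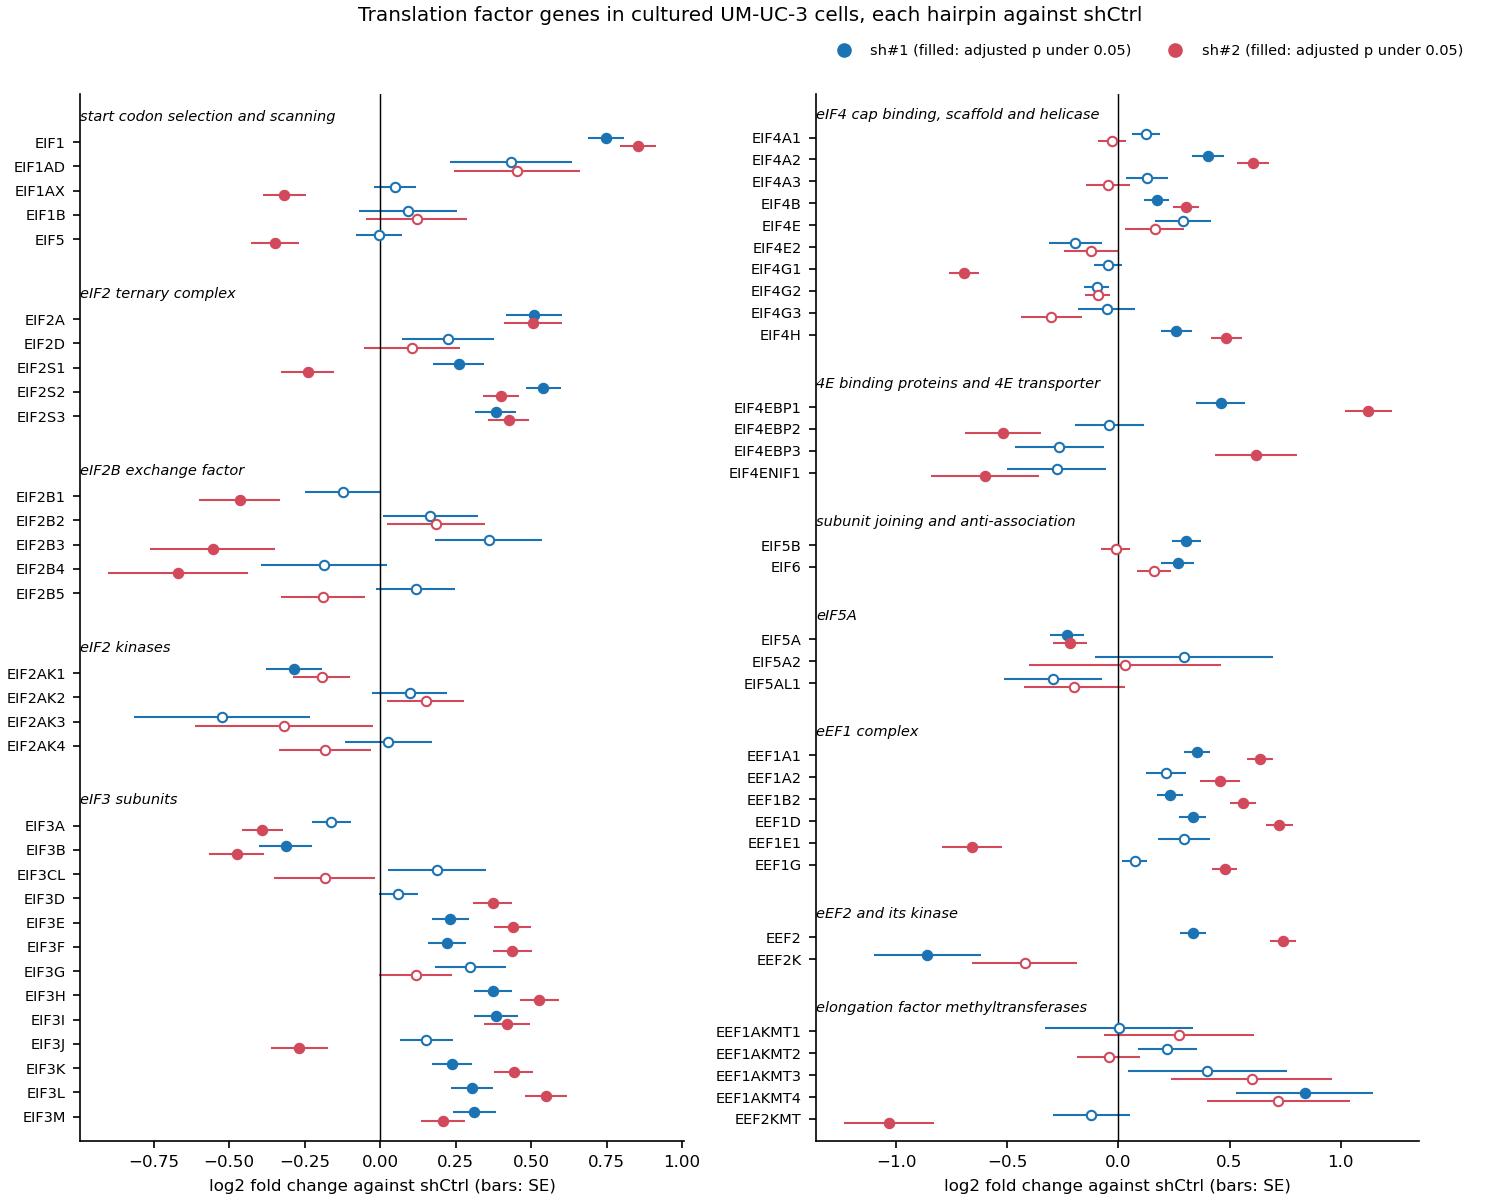
Log2 fold change against shCtrl (x axis, bars are SE) of the 64 tested members in cultured cells, grouped by role, with sh#1 in blue and sh#2 in red and filled points for an adjusted p under 0.05. Most eIF3, eIF2 and eEF1 points lie right of 0 with either hairpin, whereas 4 of the 5 eIF2B subunits and EIF4G1, EEF1E1 and EEF2KMT lie left of 0 with sh#2.

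The main elongation factors, EEF1A1 and EEF2, rose with either hairpin. EEF1A1 was at 7627, 8682 and 8525 CPM in shCtrl, 10480.0, 10205 and 11084 in sh#1 and 11909, 12508 and 14176 in sh#2. This gene, for the main eEF1A, took 0.824 to 0.924% of all counts in shCtrl, 1.03 to 1.13% in sh#1 and 1.07 to 1.27% in sh#2, and no knockdown library reached down to the controls. Its log2 fold change was 0.36 ± 0.06 (adjusted p = 7.0e-06) with sh#1 and 0.64 ± 0.06 (adjusted p = 1.3e-12) with sh#2, and it was lower in sh#1 than in sh#2 by 0.28 ± 0.06 (adjusted p = 2.4e-04). EEF2 was at 1653, 1906 and 1866 CPM in shCtrl, 2179.6, 2275 and 2399 in sh#1 and 2803, 3059 and 3207 in sh#2. The rise of EEF2, the translocation factor, was 0.34 ± 0.06 (adjusted p = 1.3e-05) with sh#1 and 0.74 ± 0.06 (adjusted p = 1.3e-15) with sh#2, again with every knockdown library above every shCtrl library and all sh#2 libraries above all sh#1 libraries.

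Of the 3 subunits of the exchange factor that recharges eEF1A, EEF1D and EEF1B2 rose with each hairpin and EEF1G with sh#2. EEF1D was at 624, 617 and 608 CPM in shCtrl, 707, 812 and 812 in sh#1 and 959.8, 1038 and 1054 in sh#2. Its log2 fold change was 0.34 ± 0.06 (adjusted p = 2.4e-05) with sh#1 and 0.72 ± 0.06 (adjusted p = 7.4e-15) with sh#2. EEF1B2 was at 614, 618 and 607 CPM in shCtrl, 670.0, 748 and 740.1 in sh#1 and 950.0, 876 and 884 in sh#2. For this subunit the values were 0.23 ± 0.06 and 0.56 ± 0.06 (adjusted p = 0.0028 and 2.0e-11). EEF1G, the remaining subunit of the exchange complex, passed with sh#2 at 0.48 ± 0.06 (adjusted p = 4.7e-10) and had 0.07 ± 0.06 (adjusted p = 0.38) with sh#1, the difference between the hairpins being -0.40 ± 0.06 (adjusted p = 1.1e-07). EEF1A2, the eEF1A form of muscle and neurons that is also found in tumors, was at 90.5, 109 and 102 CPM in shCtrl and 134, 140.5 and 139.8 in sh#2, a rise of 0.46 ± 0.09 (adjusted p = 3.8e-05). With sh#1 it had 0.21 ± 0.09 (adjusted p = 0.081).

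EEF1E1 stood apart from the other genes of that name. It encodes AIMP3, which belongs to the multi-tRNA synthetase complex and is no subunit of the exchange factor. EEF1E1 was at 49.2, 61.5 and 52.2 CPM in shCtrl, 72.98, 67.4 and 59.9 in sh#1 and 33.6, 36.3 and 33.1 in sh#2. It fell with sh#2 by 0.66 ± 0.14 on the log2 scale (adjusted p = 8.7e-05), had 0.29 ± 0.12 (adjusted p = 0.063) with sh#1, and differed between the hairpins by 0.95 ± 0.13 (adjusted p = 9.2e-08). EEF2K, the kinase that inactivates eEF2, was at 14.96, 18.0 and 17.5 CPM in shCtrl and 6.56, 12.6 and 8.81 in sh#1, a fall of 0.86 ± 0.24 (adjusted p = 0.0061), and with sh#2 it had -0.42 ± 0.24 (adjusted p = 0.16). Its call with sh#1 was lost without sh#1 library 1 (adjusted p = 0.064) and with DESeq2 (adjusted p = 0.052). EEF2KMT, which methylates a lysine of eEF2, was at 21.3, 29.5 and 25.5 CPM in shCtrl, 24.2, 22.2 and 23.6 in sh#1 and 15.4, 9.56 and 12.2 in sh#2. Its fall with sh#2, 1.03 ± 0.20 (adjusted p = 4.5e-05), was the largest among the 64 tested members in that comparison, and sh#1 and sh#2 differed by 0.91 ± 0.21 (adjusted p = 6.3e-04). The methyltransferases of eEF1A, EEF1AKMT1 to EEF1AKMT4, had means of 13.9 to 93.4 counts per library, and of these EEF1AKMT4 passed upward with sh#1 at 0.84 ± 0.31 (adjusted p = 0.041).

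**Figure D2:**
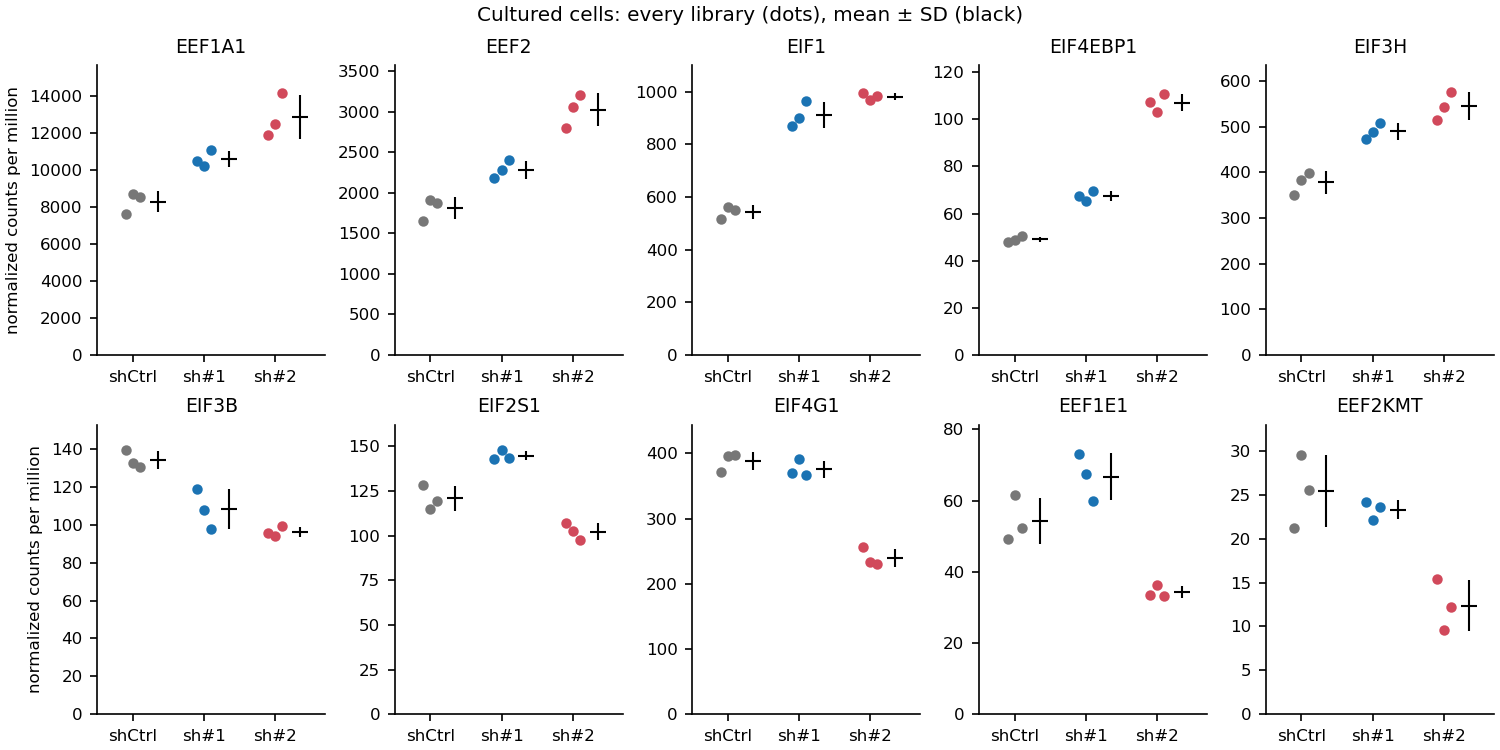
Normalized CPM (y axis, from 0) of 10 members in each of the 9 cultured libraries (dots, 3 per group), with the mean and SD in black. EEF1A1, EEF2, EIF1, EIF4EBP1 and EIF3H are above all shCtrl libraries in every knockdown library, EIF3B is below them, EIF2S1 is split by hairpin, and EIF4G1, EEF1E1 and EEF2KMT are low in sh#2 alone.

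Many of the factors that rose are TOP messenger RNAs. Of 9 members known for such a start (EEF1A1, EEF1B2, EEF1D, EEF1G, EEF2, EIF3E, EIF3F, EIF3H and EIF4B), 8 rose with CDH11 KD, 8 with sh#1 and 9 with sh#2, and none fell. Their median log2 fold changes were 0.40, 0.23 and 0.53, and 7 of them were lower in sh#1 than in sh#2 (median -0.28). With CDH11 KD the calls of EEF1B2, EIF3E, EIF3F and EIF4B were lost on leaving out any 1 of the shCtrl libraries (adjusted p = 0.06 to 0.15). The 9 genes took 1.45 to 1.58% of all counts in shCtrl, 1.78 to 1.89% in sh#1 and 1.87 to 2.09% in sh#2. These ranges did not overlap between shCtrl and either hairpin, but did between sh#1 and sh#2. The shares were taken before TMM normalization, whose factors were 1.069 to 1.085 in shCtrl, 1.016 to 1.044 in sh#1 and 0.8968 to 0.9049 in sh#2. A lower factor raises CPM, and its part in the differences between the groups was not tested. Among the 55 other tested members, 12 rose and 1 fell with CDH11 KD, 15 rose and 4 fell with sh#1, and 14 rose and 15 fell with sh#2, with medians of 0.10, 0.15 and -0.03. Of all genes, 9.12% rose and 8.32% fell with CDH11 KD, 11.8% and 10.6% with sh#1, and 19.5% and 18.8% with sh#2. The cytosolic ribosomal protein genes, the largest class of TOP messenger RNAs, had 61, 61 and 80 of 85 tested genes up and 1, 1 and 2 down in the same 3 comparisons. Their medians of 0.40, 0.26 and 0.52 lay close to those of the 9 factors, and 77 of the 85 were lower in sh#1 than in sh#2 (median -0.28). LARP1, which holds back translation of TOP messenger RNAs, fell with sh#1 by 0.41 ± 0.07 (adjusted p = 7.8e-06) and with sh#2 by 0.96 ± 0.08 (adjusted p = 4.8e-16) on the log2 scale. The counts here are RNA levels, and any part of LARP1 in them was not tested.

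The starts of 6 members, picked as examples without a rule, are printed for the feature by which TOP messenger RNAs are known. It is at the RefSeq start of 4 members that rose with both hairpins, lies just before that start in EIF1, which rose as well, and is absent near the start of EEF1E1, which fell with sh#2. The feature was also found in EIF3J, EIF4EBP2, EIF4G1 and EIF5, which fell with sh#2 too. Each line gives the 90 bases before and the 10 bases from the RefSeq transcription start (GRCh38.p14), 5′ to 3′ on the strand of the gene. Capitals mark a C followed by at least 4 pyrimidines within 5 bases of the start, and any CACGTG or TATAAA.
EEF1A1 (chr6:73521023-73521122, minus strand): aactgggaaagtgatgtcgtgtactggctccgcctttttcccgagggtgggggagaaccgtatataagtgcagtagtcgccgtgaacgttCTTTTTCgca
EEF2 (chr19:3985454-3985553, minus strand): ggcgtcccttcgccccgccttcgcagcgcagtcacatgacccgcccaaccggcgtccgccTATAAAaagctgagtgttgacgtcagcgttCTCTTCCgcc
EIF4B (chr12:53006366-53006465, plus strand): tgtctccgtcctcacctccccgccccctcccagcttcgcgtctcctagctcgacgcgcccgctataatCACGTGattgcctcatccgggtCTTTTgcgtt
EIF3F (chr11:7987247-7987346, plus strand): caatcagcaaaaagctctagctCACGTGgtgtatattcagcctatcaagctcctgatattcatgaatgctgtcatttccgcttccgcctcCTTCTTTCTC
EIF1 (chr17:41688795-41688894, plus strand): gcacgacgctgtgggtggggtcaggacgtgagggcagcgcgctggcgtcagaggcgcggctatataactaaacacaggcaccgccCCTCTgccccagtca
EEF1E1 (chr6:8102539-8102638, minus strand): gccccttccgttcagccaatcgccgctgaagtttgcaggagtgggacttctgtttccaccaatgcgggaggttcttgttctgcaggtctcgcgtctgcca

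The marked run began at the first transcribed base in EEF1A1, EEF2, EIF4B and EIF3F. In EIF1 the marked letters were the 5 bases before the annotated start, and the first transcribed base was a G. Pyrimidines also stood directly before the marked run in each of these windows. TATAAA was found in the EEF2 window, and CACGTG, the E-box bound by MYC and related factors, in those of EIF4B and EIF3F. Searched on the transcribed strand over the RefSeq table, such a run lay within 5 bases of the start of 24 of the 56 members matched by symbol (42.9%), against 6886 of 27305 genes (25.2%) in all. It was present in 11 of the 13 matched genes among the 19 members called higher with sh#1 and with sh#2 (as were 823 of all 9859 genes tested), in 4 of 13 matched genes called lower with sh#2, and in 6 of the 24 other tested members. For comparison, 57 of 76 ribosomal protein genes (75.0%) had it. Of the 6 TOP factors matched by symbol, 5 had it, namely EEF1A1, EEF1B2, EEF2, EIF3F and EIF4B. EEF1D, EEF1G, EIF3E and EIF3H were either not matched or lacked it. Searched on both strands over the whole window of 300 bases, CACGTG was in 15 of the 56 members, against 8.77% of all genes, CCGGAAGT, the site of ETS factors, in 10, against 4.95%, and TATAAA in 3, against 14.0%. A match is a description of the letters and does not show that a factor binds there.

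**Figure D3:**
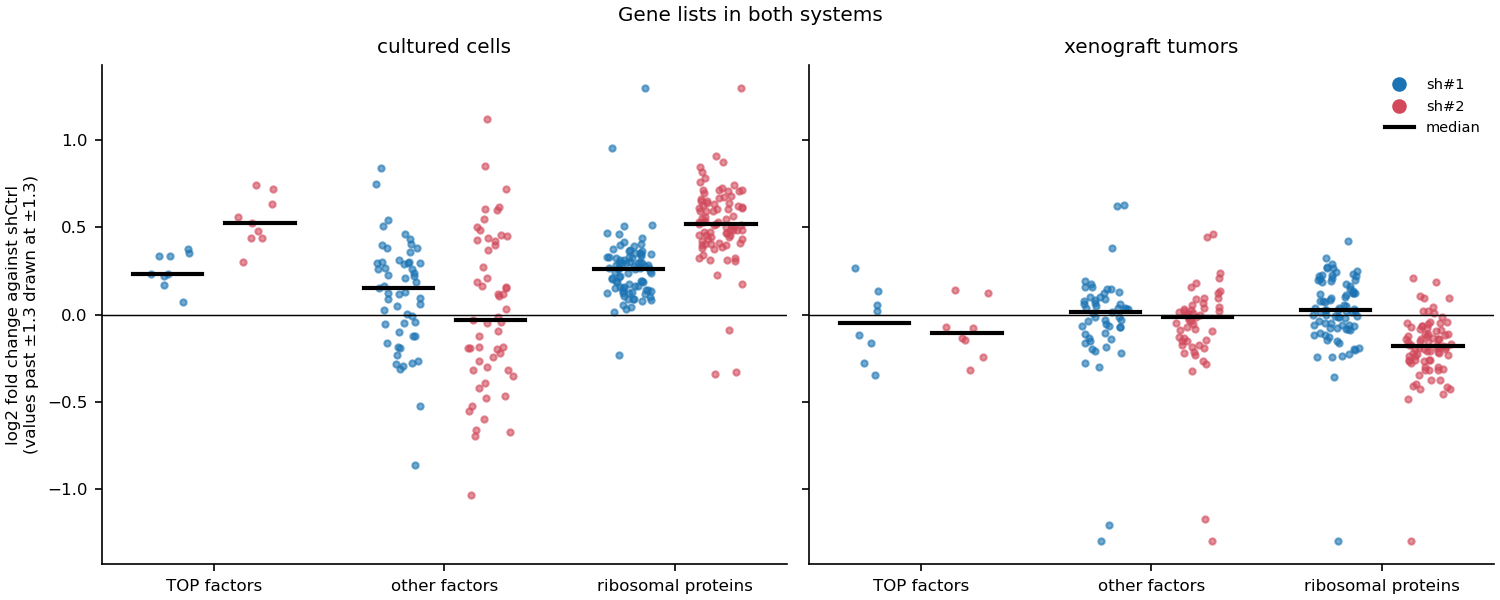
Log2 fold change against shCtrl (y axis) of each tested gene (dots) of the TOP factors, the other members and the ribosomal protein genes, with black bars for the medians, in cultured cells (left) and tumors (right). In culture the medians of the TOP factors and ribosomal proteins lie at 0.23 and 0.26 with sh#1 and at 0.53 and 0.52 with sh#2, and in tumors they lie between -0.18 and 0.03.

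Among the factors that pick the start codon, EIF1 had the clearest change. EIF1 was at 514, 563 and 552 CPM in shCtrl, 868, 902 and 966 in sh#1 and 994, 968 and 983 in sh#2. The rise of this gene, whose product keeps the scanning ribosome from stopping at wrong codons, was 0.75 ± 0.06 (adjusted p = 1.7e-15) with sh#1 and 0.85 ± 0.06 (adjusted p = 5.6e-18) with sh#2, or 1.68 and 1.81-fold. The hairpins did not differ past the threshold (-0.11 ± 0.06, adjusted p = 0.19). EIF5, which triggers hydrolysis of GTP by eIF2 and favours less strict start sites, and EIF1AX, which works with eIF1, fell with sh#2 by 0.35 ± 0.08 and 0.32 ± 0.07 (adjusted p = 4.1e-04 and 3.2e-04). With sh#1 these had -0.01 ± 0.08 and 0.05 ± 0.07, and both were higher in sh#1 than in sh#2, by 0.34 ± 0.08 and 0.37 ± 0.07 (adjusted p = 9.0e-04 and 8.0e-05). EIF1B and EIF1AD passed in no comparison.

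The subunits of eIF2 did not move as a unit. EIF2S2 was at 629, 598 and 584 CPM in shCtrl, 844, 891 and 897 in sh#1 and 831, 794 and 764 in sh#2. The rise of this β subunit was 0.54 ± 0.06 (adjusted p = 9.9e-11) with sh#1 and 0.40 ± 0.06 (adjusted p = 1.6e-07) with sh#2. EIF2S3 was at 217, 241 and 243 CPM in shCtrl, 297, 299 and 317 in sh#1 and 307, 315 and 319 in sh#2. This γ subunit rose by 0.38 ± 0.07 (adjusted p = 1.5e-05) and 0.43 ± 0.07 (adjusted p = 9.9e-07). EIF2S1 was at 128, 115 and 119.7 CPM in shCtrl, 143, 148 and 144 in sh#1 and 107, 103 and 97.4 in sh#2. This α subunit, whose phosphorylation shuts down general initiation, was higher than in shCtrl with sh#1 (0.26 ± 0.08, adjusted p = 0.017) and lower with sh#2 (-0.24 ± 0.09, adjusted p = 0.028). The sh#1 and sh#2 libraries did not overlap, and the difference between them was 0.50 ± 0.09 (adjusted p = 1.1e-05). That difference passed under each of the 16 alternatives. The call against shCtrl was lost for sh#1 with DESeq2 and without shCtrl libraries 2 or 3 or sh#1 library 2 (adjusted p = 0.053 to 0.089). For sh#2 it was lost with DESeq2 and without shCtrl libraries 1 or 3 or sh#2 libraries 2 or 3 (adjusted p = 0.053 to 0.12). EIF2A, an initiation factor outside the eIF2 trimer, was at 78.7, 75.4 and 76.6 CPM in shCtrl, 103, 109 and 116 in sh#1 and 113, 107 and 108 in sh#2. Its rise of 0.51 ± 0.09 and 0.51 ± 0.10 (adjusted p = 3.0e-05 and 2.3e-05) did not differ past the threshold between the hairpins (difference 0.00 ± 0.09, adjusted p = 0.98).

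None of the 5 subunits of eIF2B, which recycles eIF2 by nucleotide exchange, passed with sh#1. With sh#2, 3 fell, where 18.8% of all genes did. EIF2B3 was at 18.1, 18.9 and 23.2 CPM in shCtrl, 25.4, 24.3 and 27.5 in sh#1 and 12.6, 17.2 and 11.2 in sh#2. It fell with sh#2 by 0.55 ± 0.21 (adjusted p = 0.029) and was 0.91 ± 0.20 higher in sh#1 than in sh#2 (adjusted p = 3.4e-04). The call against shCtrl was lost with DESeq2 and without shCtrl library 3, sh#2 library 1 or sh#2 library 3 (adjusted p = 0.1 to 0.15). EIF2B4 fell with sh#2 by 0.67 ± 0.23 (adjusted p = 0.018), a call lost with DESeq2 and without shCtrl library 1 or sh#2 library 3 (adjusted p = 0.062 to 0.15), and EIF2B1 fell by 0.47 ± 0.14 (adjusted p = 0.0047). Of the 4 kinases that phosphorylate eIF2α, EIF2AK1, the heme-regulated kinase, fell with sh#1 by 0.28 ± 0.09 (adjusted p = 0.02), a call that was lost with DESeq2 and without shCtrl libraries 1 or 3 or sh#1 libraries 1 or 3 (adjusted p = 0.054 to 0.1). EIF2AK3, the kinase PERK of the endoplasmic reticulum, was at 5.28 to 13.0 CPM across the 9 libraries and EIF2AK4, the amino acid sensor GCN2, at 28.2 to 40.6 CPM, and neither passed in any comparison.

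More subunits of eIF3 rose than fell. Of the 13 tested, 7 rose and 1 fell with sh#1, and 8 rose and 3 fell with sh#2. Of all genes, 11.8% rose and 10.6% fell with sh#1, and 19.5% and 18.8% with sh#2. EIF3H was at 350.3, 384 and 399.8 CPM in shCtrl, 473, 488 and 509 in sh#1 and 515, 544 and 577 in sh#2. Its log2 fold change was 0.37 ± 0.06 (adjusted p = 8.2e-06) with sh#1 and 0.53 ± 0.06 (adjusted p = 1.1e-09) with sh#2. EIF3E, EIF3F, EIF3I, EIF3K and EIF3L also rose with each hairpin, by 0.22 to 0.38 with sh#1 (adjusted p = 6.9e-05 to 0.0082) and by 0.42 to 0.55 with sh#2 (adjusted p = 3.9e-09 to 8.2e-06), and their knockdown libraries lay above all shCtrl libraries. EIF3M rose with sh#1 (0.31 ± 0.07, adjusted p = 8.0e-04) and with sh#2 (0.21 ± 0.07, adjusted p = 0.021), the latter lost with DESeq2, with upper quartile normalization, and without shCtrl library 1, sh#2 library 1 or sh#2 library 3 (adjusted p = 0.06 to 0.097). EIF3D, the subunit that can bind caps, passed with sh#2 (0.37 ± 0.07, adjusted p = 5.0e-06) and had 0.06 ± 0.07 with sh#1.

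Of EIF3A and EIF3B, on which the other subunits assemble, EIF3B fell with each hairpin and EIF3A with sh#2. EIF3B was at 139, 132 and 130.3 CPM in shCtrl, 119, 108 and 97.9 in sh#1 and 95.7, 94.1 and 99.3 in sh#2. Every knockdown library was below every shCtrl library, and the fall was 0.31 ± 0.09 with sh#1 (adjusted p = 0.0061, and 0.078 without sh#1 library 3) and 0.48 ± 0.09 with sh#2 (adjusted p = 2.8e-05). EIF3A was at 512, 456 and 428 CPM in shCtrl, 389.5, 416 and 441 in sh#1 and 368, 348 and 349 in sh#2. It fell with sh#2 by 0.39 ± 0.07 (adjusted p = 3.9e-06) and had -0.16 ± 0.07 (adjusted p = 0.067) with sh#1. EIF3J, a loosely held subunit, fell with sh#2 by 0.27 ± 0.09 (adjusted p = 0.02) and had 0.15 ± 0.09 with sh#1. EIF3C and EIF3CL are near-identical copies on chromosome 16 (GRCh38, 28688558 to 28735727 on the plus strand and 28379579 to 28403841 on the minus strand), and reads cannot be told apart between them. In culture EIF3C had 105 counts in sh#1 library 2, 329 in sh#2 library 3, 6 in shCtrl library 3 and 0 in the other 6 libraries, while EIF3CL was at 395, 369 and 380.3 CPM in shCtrl, 427, 419 and 455 in sh#1 and 372, 392 and 242 in sh#2. With the counts of both copies added, the log2 fold change was 0.23 ± 0.06 with sh#1 (adjusted p = 0.0039) and 0.02 ± 0.06 with sh#2 (adjusted p = 0.8).

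In the cap-binding and helicase group, EIF4A2, EIF4B and EIF4H rose and the scaffold EIF4G1 fell with sh#2. EIF4A2 was at 163, 175 and 183 CPM in shCtrl, 219, 230.4 and 239 in sh#1 and 266, 256 and 269.8 in sh#2. This paralog of the helicase rose by 0.40 ± 0.07 (adjusted p = 1.8e-05) and 0.60 ± 0.07 (adjusted p = 7.1e-10). EIF4A1, the main form, was at 418 to 502 CPM in all 9 libraries and had 0.12 ± 0.06 (adjusted p = 0.15) and -0.03 ± 0.06 (adjusted p = 0.74). EIF4H, a helper of the helicase, rose by 0.26 ± 0.07 (adjusted p = 0.0041) and 0.49 ± 0.07 (adjusted p = 8.2e-08). EIF4B, the other helper, rose by 0.17 ± 0.06 (adjusted p = 0.023) and 0.30 ± 0.06 (adjusted p = 2.0e-05). Its call with sh#1 was lost with upper quartile normalization and without shCtrl libraries 2 or 3 or sh#1 libraries 2 or 3 (adjusted p = 0.061 to 0.071). EIF4G1 was at 372, 396 and 397 CPM in shCtrl, 369.8, 391 and 366 in sh#1 and 256, 233 and 230.3 in sh#2. The 3 sh#2 libraries lay below all others, a fall of 0.69 ± 0.07 (adjusted p = 1.0e-12), whereas sh#1 had -0.05 ± 0.06 (adjusted p = 0.65) and the hairpins differed by 0.65 ± 0.07 (adjusted p = 4.1e-11). EIF4E, the cap-binding protein, did not pass, with 0.29 ± 0.13 (adjusted p = 0.092) and 0.16 ± 0.13 (adjusted p = 0.35), nor did EIF4E2, EIF4A3, EIF4G2 and EIF4G3 in any of the 4 comparisons.

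Of the proteins that hold eIF4E back, EIF4EBP1 rose most of all members with sh#2. This gene encodes the 4E binding protein that mTOR signalling releases from eIF4E. EIF4EBP1 was at 48.0, 48.8 and 50.3 CPM in shCtrl, 67.7, 65.2 and 69.4 in sh#1 and 107, 103 and 111 in sh#2. The groups did not overlap, and the rise was 0.46 ± 0.11 (adjusted p = 0.0013) with sh#1 and 1.12 ± 0.11 (adjusted p = 3.9e-13) with sh#2, or 1.38 and 2.18-fold. The difference between the hairpins was -0.66 ± 0.10 (adjusted p = 6.9e-07). The related EIF4EBP2 was at 32.3, 32.4 and 28.6 CPM in shCtrl and 20.1, 18.6 and 26.3 in sh#2, a fall of 0.52 ± 0.17 (adjusted p = 0.012). That call was lost with DESeq2 and without sh#2 libraries 1 or 2 (adjusted p = 0.057 to 0.085). EIF4EBP3 was at 18.1, 20.5 and 15.2 CPM in shCtrl, 13.9, 13.5 and 16.9 in sh#1 and 23.8, 30.6 and 28.2 in sh#2. It rose with sh#2 by 0.62 ± 0.18 (adjusted p = 0.0059), with -0.27 ± 0.20 (adjusted p = 0.37) for sh#1 and -0.88 ± 0.19 (adjusted p = 3.1e-04) between them. EIF4ENIF1, which carries eIF4E into the nucleus, fell with sh#2 by 0.60 ± 0.24 (adjusted p = 0.044). This call was lost in 8 of 16 alternatives, among them DESeq2 and leaving out shCtrl libraries 2 or 3, sh#1 library 2 or any sh#2 library (adjusted p = 0.052 to 0.17).

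Of the late factors, EIF5B, which joins the subunits, rose with sh#1 (0.30 ± 0.06, adjusted p = 2.9e-04) and had -0.01 ± 0.07 with sh#2. EIF6, which keeps the large subunit free, was at 214, 229.6 and 209.6 CPM in shCtrl and 263, 276 and 247 in sh#1, a rise of 0.27 ± 0.07 (adjusted p = 0.0054), and had 0.16 ± 0.08 (adjusted p = 0.087) with sh#2. EIF5A, the hypusine-bearing factor that eases elongation at stalled sites, was at 1567, 1299 and 1348 CPM in shCtrl, 1252, 1241 and 1094 in sh#1 and 1354, 1115 and 1150.3 in sh#2, so that shCtrl library 1 was the highest and sh#2 library 1 lay within the range of the controls. It fell by 0.23 ± 0.08 with sh#1 and 0.22 ± 0.08 with sh#2 (adjusted p = 0.032 and 0.028). Both calls were lost without shCtrl library 1 (adjusted p = 0.14). That for sh#1 was also lost without sh#1 libraries 1 or 3 (adjusted p = 0.075 and 0.17), and that for sh#2 without sh#1 library 1 or sh#2 libraries 2 or 3 (adjusted p = 0.062 to 0.14). Across all roles, 21 of the 64 tested members passed in none of the 4 comparisons in culture. No such count over all genes is given here to set beside it. The 6 members that did not pass the filter were EIF3C, EIF4E3, EIF2S3B and, with no count in any library, EIF4E1B and the readthrough genes EEF1AKMT4-ECE2 and EEF1E1-BLOC1S5.

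Other genes of the pathway were looked at through lists of termination, recycling and poly(A) binding genes (11 tested), regulators of the factors (16) and mitochondrial translation factors (9). Of the termination group, 2 rose and 1 fell with CDH11 KD, where 9.12% of all genes rose and 8.32% fell. PAIP2, an inhibitor of poly(A)-binding protein, rose by 0.42 ± 0.07 (adjusted p = 1.4e-05) with sh#1 and 0.74 ± 0.07 (adjusted p = 2.1e-12) with sh#2, and ABCE1, the recycling ATPase, fell with sh#2 by 0.64 ± 0.11 (adjusted p = 2.2e-06). Of the regulators, 1 rose and 2 fell with CDH11 KD, against the same shares of all genes. PPP1R15A, the phosphatase subunit GADD34 that reverses phosphorylation of eIF2α, rose by 1.90 ± 0.12 (adjusted p = 3.1e-19) with sh#1 and 2.08 ± 0.12 (adjusted p = 3.3e-21) with sh#2, more than any member did. DPH2, needed for the diphthamide residue of eEF2, fell by 0.59 ± 0.18 (adjusted p = 0.013) with sh#1 and 1.04 ± 0.20 (adjusted p = 3.2e-05) with sh#2, and LARP1 was the other regulator that fell with CDH11 KD. Among the mitochondrial factors 1 rose, MTRF1L, a release factor, with 0.42 ± 0.13 (adjusted p = 0.01) and 0.54 ± 0.13 (adjusted p = 5.5e-04), and none fell with CDH11 KD.

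In the tumors, few members passed. With CDH11 KD none of the 59 tested members rose and 3 fell, where 0.697% and 0.817% of 9184 genes did, and the median log2 fold change of the members was -0.03, against 0.01 over all genes. With sh#1, 1 rose and 3 fell, where 0.773% and 0.708% did, and with sh#2 none rose and 3 fell, where 1.36% and 1.32% did. Between the hairpins 2 members were higher in sh#1 and none in sh#2, against 0.642% and 0.544% of all genes. Both hairpins were again compared with the same 5 shCtrl tumors. At an unadjusted p under 0.05 there were 6, 7, 5 and 3 of the 59 members in the 4 comparisons, where 12.7%, 11.2%, 13.7% and 9.94% of all genes were, so these counts were near or under the background. Single tumors decided part of these counts. The 3 for CDH11 KD became 1 without shCtrl tumor 1. The 4 for sh#1 became 1 without sh#1 tumor 3 and 2 without shCtrl tumors 1 or 3 or sh#1 tumor 2. The 3 for sh#2 became 1 without shCtrl tumors 1 or 4 or sh#2 tumors 2 or 3 and 5 without shCtrl tumor 5. With all tumors, the members that passed at the adjusted p were EEF2, EIF3C, EIF3CL and EIF5AL1, and 55 passed in no comparison. For the latter no count over all genes is given. Tumor tissue mixes cells, so fewer cells of a state and less RNA per cell cannot be told apart here.

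EEF2 ranged from 1037 to 1282 CPM in shCtrl tumors (median 1199.7), 844 to 1014 in sh#1 (median 896) and 857 to 1012 in sh#2 (median 987). All 10 CDH11 KD tumors lay below the lowest shCtrl tumor, and EEF2 fell by 0.33 ± 0.09 on the log2 scale (adjusted p = 0.056), by 0.35 ± 0.10 with sh#1 (adjusted p = 0.074) and 0.32 ± 0.10 with sh#2 (adjusted p = 0.088). In culture the same gene was higher, at 0.55 ± 0.12 for CDH11 KD, and the difference between the systems was not tested, since they were sequenced and mapped separately. The fall in tumors was close to the threshold. With CDH11 KD it was lost in 6 of 26 alternatives, namely without shCtrl tumor 1, 2, 3 or 4 (log2 -0.34 to -0.30, adjusted p = 0.13 to 0.18) and with the mouse share as a covariate, with the abundant mouse gene CT010467.1 (adjusted p = 0.19) or without it (adjusted p = 0.1). Over all alternatives the adjusted p ran from 0.0012 to 0.19. The calls for sh#1 and sh#2 were lost in 11 and 13 of 25 alternatives. The mouse share had medians of 11.8, 11.3 and 14.4% in shCtrl, sh#1 and sh#2 tumors. In the same order, 7 summed markers of fibroblasts, vessels and leukocytes had medians of 1236, 816 and 1846 CPM of human and mouse counts. The marker ranges of 987 to 2431.5, 489 to 1282 and 705 to 3540 CPM overlapped, as did those of the mouse share. The part of the mouse share and host markers beyond the covariate fit was not tested.

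The copies of the eIF3c gene had the largest differences in tumors. EIF3C had 10.7 to 29.6 CPM in shCtrl tumors (7 to 32 counts), 6.06 to 16.6 in sh#1 and 0 to 2.69 in sh#2 (0 to 2 counts). It fell by 1.99 ± 0.42 with CDH11 KD (adjusted p = 0.022) and by 1.20 ± 0.32 with sh#1 (adjusted p = 0.06), and its log2 fold change was -3.92 ± 0.48 with sh#2 (adjusted p = 3.7e-07). EIF3CL had 9.19 to 34.7, 2.02 to 8.49 and 3.82 to 21.3 CPM, and fell by 1.65 ± 0.32, 2.35 ± 0.36 and 1.17 ± 0.31 (adjusted p = 0.0068, 6.7e-05 and 0.044). No sh#2 tumor overlapped shCtrl for EIF3C and no sh#1 tumor did for EIF3CL, while the other hairpin overlapped shCtrl in each case. The difference of EIF3C between the hairpins, 2.72 ± 0.57 (adjusted p = 0.0082), became 0.09 ± 0.35 (adjusted p = 0.97) when the counts of the copies were added. Added, they fell, with log2 fold changes of -1.79 ± 0.22 for CDH11 KD (adjusted p = 3.1e-06), -1.75 ± 0.27 for sh#1 (adjusted p = 0.00013) and -1.84 ± 0.28 for sh#2 (adjusted p = 7.2e-05). Taken alone, EIF3C lost its call with CDH11 KD without shCtrl tumor 1 (adjusted p = 0.11). With sh#1 the call was lost in 7 of 24 alternatives, among them leaving out shCtrl tumors 1 or 3 or sh#1 tumors 2, 3 or 5 (adjusted p = 0.12 to 0.22). EIF3CL lost its call with sh#2 in 6 of 24, namely without shCtrl tumors 1 or 4 or sh#2 tumors 2 or 3 (adjusted p = 0.11 to 0.13) and with the mouse share as a covariate, with CT010467.1 (adjusted p = 0.31) or without it (adjusted p = 0.11). All of these values rest on at most 40 counts of either copy in a tumor. EIF3CL was at 369 to 395 CPM in shCtrl cells, far above either copy in shCtrl tumors. Why the tumors held so few counts of the copies was not tested.

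EIF5AL1 ranged from 68.9 to 89.1 CPM in shCtrl tumors (median 71.1), 102 to 153 in sh#1 (median 105) and 61.1 to 101 in sh#2 (median 80.0). This retrocopy of EIF5A was above all shCtrl tumors in all 5 sh#1 tumors, a rise of 0.62 ± 0.15 (adjusted p = 0.029), and 0.56 ± 0.15 (adjusted p = 0.091) higher in sh#1 than in sh#2. Reads of EIF5A can be assigned to it, and the call against shCtrl was lost without sh#1 tumor 3 (0.50, adjusted p = 0.16). The difference between the hairpins was lost in 8 of 24 alternatives, leaving out sh#1 tumors 2, 3 or 5 or sh#2 tumors 1, 3, 4 or 5 among them (adjusted p = 0.1 to 0.27). With its counts added to those of EIF5A, the values were -0.11 ± 0.10 for sh#1 and 0.07 ± 0.10 between the hairpins.

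**Figure D4:**
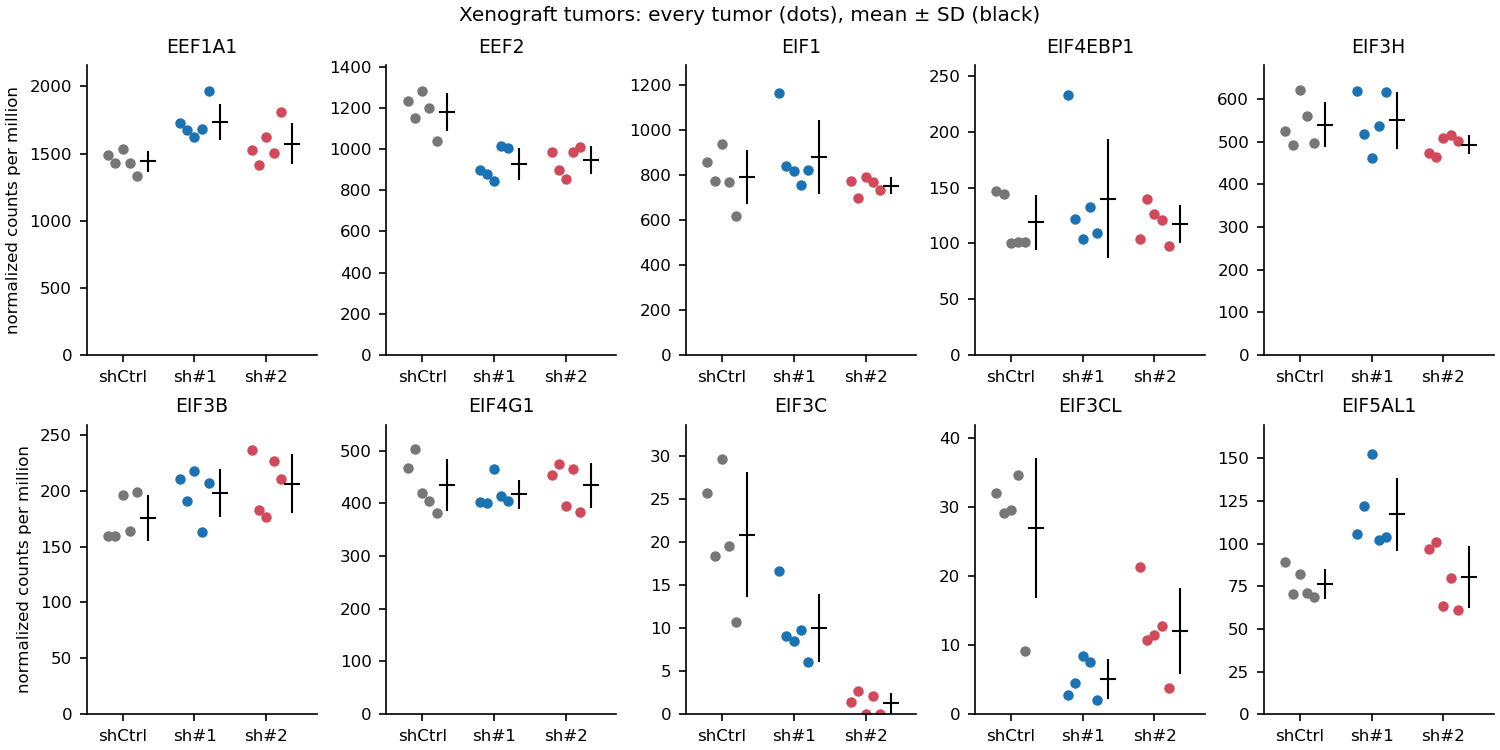
Normalized CPM (y axis, from 0) of 10 members in each of the 15 tumors (dots, 5 per group), with the mean and SD in black. All CDH11 KD tumors are below the shCtrl tumors for EEF2, EIF3C is lowest in sh#2 and EIF3CL in sh#1, and EIF1 and EIF4EBP1 overlap apart from a high value in sh#1 tumor 1.

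None of the factors that rose in culture was called higher in tumors. EEF1A1 ranged from 1329.8 to 1535 CPM in shCtrl tumors (median 1432), 1624 to 1967 in sh#1 (median 1684) and 1412 to 1808 in sh#2 (median 1528). Although every sh#1 tumor lay above every shCtrl tumor, its log2 fold change of 0.27 ± 0.09 (adjusted p = 0.2) with sh#1 and 0.20 ± 0.09 (adjusted p = 0.34) with CDH11 KD did not pass. EIF1 had 0.04 ± 0.11 (adjusted p = 0.92), EIF4EBP1 0.08 ± 0.15 (adjusted p = 0.88), EIF3H -0.05 ± 0.10 (adjusted p = 0.87) and EIF4A2 0.21 ± 0.18 (adjusted p = 0.67) with CDH11 KD. Those that fell with sh#2 in culture did not pass either, with -0.00 ± 0.11 (adjusted p = 0.99) for EIF4G1, 0.24 ± 0.12 (adjusted p = 0.4) for EIF3B and -0.05 ± 0.15 (adjusted p = 0.92) for EEF1E1 in sh#2 tumors. Of the 8 TOP factors tested in tumors, EEF2 alone passed in each comparison with shCtrl, and the medians were -0.09 with CDH11 KD, -0.05 with sh#1 and -0.10 with sh#2. Ribosomal protein genes had 12 of 81 down and none up with sh#2 (median -0.18) and 1 up and 1 down with sh#1 (median 0.03), and 12 were higher in sh#1 than in sh#2 (median 0.19). Of all genes, 1.32% were down with sh#2 and 0.642% were higher in sh#1 than in sh#2. In the other lists PDCD4, an inhibitor of eIF4A, fell with CDH11 KD by 0.46 ± 0.13 (adjusted p = 0.093) and with sh#2 by 0.53 ± 0.16 (adjusted p = 0.088), and no termination or mitochondrial factor passed.

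**Figure D5:**
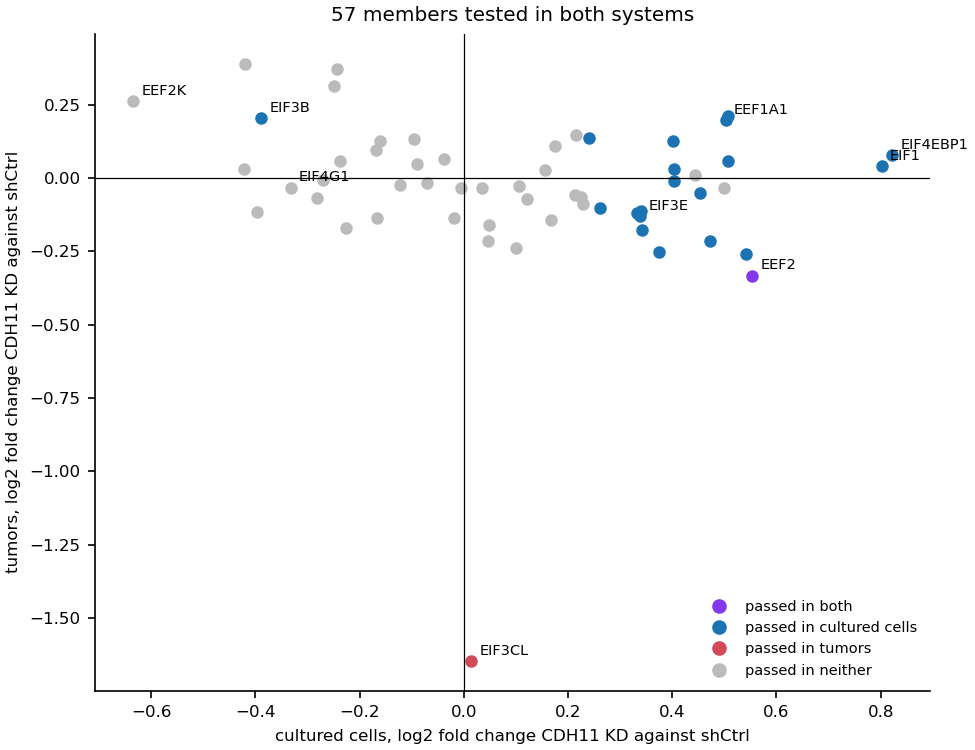
Log2 fold change of CDH11 KD against shCtrl in cultured cells (x axis) and in tumors (y axis) for the 57 members tested in both, coloured by the system in which the adjusted p passed (0.05 in culture, 0.1 in tumors). EEF2 is the member that passed in both, at 0.55 and -0.33, EIF3CL lies far below the others at -1.65 in tumors, and the other 55 lie between -0.26 and 0.39 in tumors.

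Levels in tumors and in culture are not on a common scale, and some genes had far fewer counts in the tumor table. EEF1G had 29230 counts over the cultured libraries and 1 over all tumors, EIF3L 8505 and 63, EIF4A1 10090 and 319, and EEF1D 16978 and 632. EIF3CL was at 369 to 395 CPM in shCtrl cells and at 9.19 to 34.7 CPM in shCtrl tumors. The annotation used here lists a gene on the same strand that overlaps EEF1G, EIF3L and EIF4A1. It lists one for other members too, among them EIF3E (12351 and 8569 counts), EIF3I (4811 and 4115), EIF5 (4119 and 3389) and EIF1B (593 and 789). Further ones are EIF3J (2451 and 1303), EIF6 (5163 and 1419) and EIF4B (15572 and 3465). EEF1D is overlapped on the opposite strand alone. A gene over EIF3L had 439 counts over all tumors, a gene over EIF4A1 had 1, and that over EEF1G was not listed. The part of such overlaps in the tumor counts was not tested. How reads shared by overlapping genes were counted is not given in the sources used here. EEF1G and EIF3L, both higher with sh#2 in culture, did not pass the low-count filter in tumors, nor did EEF1AKMT1, EEF1AKMT4, EEF2KMT, EIF2S3B, EIF4E1B, EIF4E3 and EIF5A2. All members together took 2.57 to 2.66% of counts in shCtrl cells, 2.92 to 3.05% in sh#1 and 2.86 to 3.06% in sh#2. In tumors they took 1.40 to 1.56%, 1.36 to 1.46% and 1.29 to 1.49%. The share was thus above every control in each knockdown library in culture and overlapped between the groups of tumors. EEF1A1 carried much of it, and without this gene the members took 1.74% in each shCtrl library, 1.86 to 1.92% in sh#1 and 1.79% in each sh#2 library.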

How the data were processed

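RNA-seq covered 9 libraries from UM-UC-3 cells in culture and 15 xenograft tumors, and the authors deposited raw counts per gene. Per the study's methods, reads of cultured cells were trimmed in CLC and mapped to hg38 through RaNAseq, and those of tumors were trimmed with Trim Galore and mapped to hg38 with HISAT2. The counting tool, the annotation and the split of tumor reads into human and mouse genes are not given in the sources used here. Tumors were deposited with human and mouse counts, and the deposited barcode list places a group's 5 tumors in 1 mix. Some genes in the table for cultured cells were not analysed here.

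Counts were tested with edgeR 4.0.16 (R 4.3.3, limma 3.58.1): filterByExpr, TMM, robust quasi-likelihood fits and Benjamini-Hochberg adjustment over all tested genes. For CDH11 KD both hairpins were 1 group, and for the other comparisons the 3 groups were fitted together. The scripts were tested on simulated data. No 2 libraries of a group agreed within sampling noise. Alternatives were DESeq2 1.42.0, upper quartile normalization, other filters, protein-coding genes alone, a replicate block, each library left out, 3 groups for CDH11 KD, the mouse share as a covariate, and pseudogene or copy counts added to their gene.

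The members and gene lists were chosen with earlier results of these data known. Genes named were, for each comparison, the 6 largest rises and 6 largest falls that passed, among genes averaging 20 counts or more, members called in the same direction with both hairpins, 15 main factors (EIF2S1, EIF4E, EIF4G1, EIF4A1, EIF4A2, EIF4EBP1, EIF3A, EIF5A, EIF6, EEF1A1, EEF1A2, EEF2, EEF2K, EIF2AK3 and EIF2AK4) and members below the filter. Other members, such as EIF5B, EIF3D, EIF3J, EIF5, EIF1AX, EIF2B1 and EEF1AKMT4, were named after their values were seen, with no alternatives run for them singly. Sequences are from the RefSeq promoter table (GRCh38.p14), in which 56 of the 71 members were found by symbol.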

Additional observations from a re-analysis of the deposited data

Results flagged for a closer look

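Among 121 groups of 5 tumors, each being a named member's values in a group, 14 held a tumor whose value lay far from the other 4, where chance gives about 1 in 20 groups. Of the 14, 4 were in sh#1 tumor 1, the tumor with the fewest human counts and the highest mouse share. There EEF1A2 was at 169 CPM against 62.6 to 89.3 in the other sh#1 tumors, EIF1 at 1165 against 757 to 840, EIF2AK3 at 27.7 against 13.6 to 17.2 and EIF4EBP1 at 233 against 104 to 133. The part of depth or mouse share in these values was not tested.

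The shCtrl tumors held 5 such values. In tumor 3, EEF1E1 was at 95.8 CPM against 72.0 to 77.8, EIF4A2 at 237 against 152 to 172 and EIF2AK3 at 4.56 against 10.7 to 12.8. In tumor 5, EIF2AK1 was at 79.7 against 57.3 to 63.1 and EIF3CL at 9.19 against 29.2 to 34.7. In sh#1 tumor 3, EIF4G1 was at 465.6 CPM against 400.1 to 413. In the sh#2 tumors, EEF1E1 was at 53.7 CPM in tumor 2 against 78.2 to 84.0, EIF2AK3 at 6.40 in tumor 4 against 12.1 to 14.2, EIF4H at 78.2 in tumor 1 against 104 to 112, and EIF5A at 2086 in tumor 1 against 1578 to 1711.

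For EEF2 and EIF3E, 2 of the 57 members tested in both systems (3.51%, against 67 of 8307 genes or 0.807%), every knockdown sample lay on one side of the shCtrl mean in culture and on the other side in tumors. For CDH11 KD the log2 fold change of EEF2 was -0.33 in tumors and 0.55 in culture, and that of EIF3E was -0.13 and 0.34. Unlike EEF2, EIF3E passed in no tumor comparison, and its CDH11 KD and shCtrl tumors overlapped. The difference between the systems was not tested.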

How the results depend on the processing

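No value of the 43 named genes that had passed changed direction under any alternative. In culture 123 of the gene values compared lost their call, 29 gained one and 2570 kept their side of the threshold, and in tumors 54, 3 and 3865 did. Of 19 members called higher with both hairpins in culture, 17 kept both calls throughout, EIF3M and EIF4B being the exceptions. With CDH11 KD in culture the 21 calls became 34 with the hairpins as separate groups, and 11 to 22 with a library left out. With a library left out, the counts were 23 to 28 for sh#1, 31 to 38 for sh#2 and 22 to 27 between the hairpins.

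In tumors the 3 calls for CDH11 KD were 1 to 4 with a tumor left out, the 4 for sh#1 were 1 to 4, the 3 for sh#2 were 1 to 5 and the 2 between the hairpins were 1 to 2. With the mouse share as a covariate, sh#2 had 1 call, and 1 without CT010467.1. With copies summed, sh#1 had 2 calls and the hairpins 0 between them. DESeq2, a mean of at least 10 counts and protein-coding genes alone each gave 1 between the hairpins. For each of these, the cause was not tested, apart from the merged copies. Summing copies and leaving out CT010467.1 were chosen after seeing the data.

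With the replicate block, sh#1 tumors had 2 calls in place of 4, and cultured cells 18, 28, 38 and 27 in the 4 comparisons. Same-numbered libraries correlated at -0.015 to 0.066 in culture and -0.10 to 0.13 in tumors, and 4 of 9 and 4 of 15 libraries correlated best with their own number, so the numbers do not pair the samples. Tumor depth limits low members: EIF3C had 0 to 2 counts per sh#2 tumor.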

Other observations

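The mouse counts of the tumors hold the same factor genes of the host cells. The 66 mouse genes together took medians of 17824, 17354 and 15838 CPM of mouse counts, CT010467.1 left out, in shCtrl, sh#1 and sh#2 tumors, and the lowest value, 8366, was in sh#1. Mouse Eef2 had medians of 917, 861 and 963 CPM, from 41 to 149 counts per tumor, and the ranges of the 3 groups overlapped. Mouse Eif3c had medians of 209, 155 and 213 CPM, from 4 to 33 counts per tumor, and its ranges overlapped as well. Mouse Eif4ebp1 had medians of 97.9, 62.1 and 123 CPM. No test was run on these values.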
